A study of Mus musculus with 11 samples.

Results

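The subject is a set of 29 mouse genes of DNA replication and S phase, whose RNA levels were read by sequencing in natural killer (NK) cells positive for Ly49H. Members were taken by gene symbol from a fixed list and found through their Entrez IDs. All 29 were present among the 24421 genes of the deposited count table, and all 29 passed the filter on low counts, which kept 13711 genes. The rule that defines the list uses no measured value, but the members were chosen with earlier results of these data known. The list holds the 6 MCM helicase subunits, 6 genes of origin licensing and firing, 2 cyclins E, 4 polymerase and primase genes, 4 fork factors, 4 genes of deoxynucleotide supply, and 3 genes of chromatin and histone supply.

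The NK cells came from spleens of C57BL/6 mixed bone marrow chimeras treated in vivo with mouse cytomegalovirus (MCMV), whose m157 protein is the ligand of the activating receptor Ly49H. The WT (wild-type) donor cells are marked by CD45.1, and those deficient in LDHA (KO) by CD45.2. LDHA is a subunit of the enzyme that converts pyruvate to lactate. Titles give 4 groups: KO D0 (n = 3), KO D2 (n = 3), WT D0 (n = 2) and WT D2 (n = 3). The labels give day 2 after infection for all 11 libraries, D0 titles included, so D0 and D2 are the titles' terms and the infection state of the D0 cells is not known here. WT-titled libraries carry a genotype label that names both genotypes, and the title was followed. The labels call each sample an individual mouse but do not say which KO and WT samples shared a host, how Ldha was deleted or in which other cells. Ages are not given.

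Library totals ran from 19452460 to 27992092 counts. Levels are given in CPM, library-scaled counts with TMM factors. Ldha averaged 610 CPM at D0 and 2903 CPM at D2 in WT cells, and 99.4 CPM at D0 and 110 CPM at D2 in KO cells, lower in every KO library than in any WT library. All 10 NK cell markers were detected in every group. Ncr1 was lower in every KO library than in any WT library. Its means in KO and WT were 674 and 1308 CPM at D0, and 873 and 1523 CPM at D2. At D2, Tbx21 was also lower in KO without overlap, while Klra8, Nkg7 and Prf1 were higher without overlap. The 8 T cell markers summed to between 14.4 and 31.8 CPM per library. Erythroid markers, led by the globin gene Hbb-bs, summed to 77.7 to 705 CPM in KO D0, 151 to 643 CPM in WT D0, 49.4 to 159 CPM in KO D2 and 27.6 to 245 CPM in WT D2. Monocyte markers, led by Lyz2 at D0 and by Cd68 at D2, summed to 23.6 to 61.8 CPM across D0 libraries and 12.0 to 18.8 CPM across D2 libraries. The part of these other cells in differences between D2 and D0 was not tested.

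Before S phase, the origin recognition complex, CDC6 and CDT1 load double rings of the MCM proteins onto DNA. Cyclin E with its kinase, CDC45 and the GINS complex then turn these rings into active helicases, and DNA polymerase alpha with primase starts each new strand. Many of these genes are transcribed at the G1 to S transition under E2F factors. Resting NK cells divide little, and Ly49H+ cells divide repeatedly during MCMV infection.

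Promoter sequence is shown first because it is a feature of the members that the list did not use. RefSeq promoter windows of build GRCm38.p6 (250 bases before to 50 bases after the start) were at hand for 23 of the 29 genes. They were searched on both strands for 4 E2F-type strings, TTTGGCGC, TTTCGCGC, TTTCCCGC and TTTGCCGC. Of the 23 genes, 8 (34.8%) held at least 1 match: Mcm3, Mcm5, Mcm6, Mcm7, Cdc6, Cdt1, Uhrf1 and Pola1. Among all tested genes with a window the share was 4.68%, and among all genes with a window 2.6%. Matches on opposite strands can overlap, as in Mcm5 and Mcm6. The string CCAAT occurred in 15 of the 23 genes (65.2%) against 43% of tested genes, and TTTGAA or TTCGAA in 4 of 23 (17.4%) against 17.4%. A match of letters is not evidence of a bound site. The stretches below carry the matches that lie upstream of the start of their own window, read in the direction of the gene, with E2F-type matches in capitals. For Mcm7, Cdc6, Uhrf1 and Pola1 that start lies inside the gene, so their stretches fall within the gene's outer bounds.

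Mcm6, chr1:128359709-128359851, minus strand: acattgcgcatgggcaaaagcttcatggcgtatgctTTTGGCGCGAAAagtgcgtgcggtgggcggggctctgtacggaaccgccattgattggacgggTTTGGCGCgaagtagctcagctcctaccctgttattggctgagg
Mcm5, chr8:75109320-75109403, plus strand: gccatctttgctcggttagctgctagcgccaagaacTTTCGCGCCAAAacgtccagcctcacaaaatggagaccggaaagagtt
Mcm7, chr5:138172005-138172084, minus strand: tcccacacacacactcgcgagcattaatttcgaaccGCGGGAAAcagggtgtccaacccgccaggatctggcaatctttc
Cdc6, chr11:98907977-98908056, plus strand: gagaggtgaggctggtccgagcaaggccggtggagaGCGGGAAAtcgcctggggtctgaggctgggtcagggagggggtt
Uhrf1, chr17:56304092-56304171, plus strand: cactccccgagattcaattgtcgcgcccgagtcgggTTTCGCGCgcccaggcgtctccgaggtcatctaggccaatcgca
Pola1, chrX:93632250-93632329, minus strand: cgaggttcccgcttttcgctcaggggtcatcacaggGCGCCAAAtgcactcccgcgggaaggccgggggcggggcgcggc

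Mcm6 carried 3 matches, 2 of them overlapping, the most of the printed stretches. The matches of Mcm3 and Cdt1 lie after the start of their window and are not printed. Most genes with a match and those without rose at D2, as the values that follow show. The exceptions held a match: Cdt1, not called in WT and lower in KO, and Mcm6, not called in KO. Of the 5 members that differed between genotypes at D2, Mcm6 and Cdt1 held a match while Ccne1, Ung and Rrm2 held none.

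At D2, nearly the whole replication set was more abundant than at D0 in WT cells. Higher calls were made for 28 of 29 members (edgeR quasi-likelihood test, Benjamini-Hochberg adjusted p under 0.05), against 27.5% of all tested genes, and no member was lower (26% of all genes). D2 libraries lay above both D0 libraries for these 28 members, against 33.6% of all genes. The median log2 fold change was 2.57 for the members and -0.07 for all genes tested. In KO cells 27 members were higher, against 27% of all genes, 1 was lower, against 34.5%, and 1 was not called. KO libraries of the 2 days did not overlap for the same 27 (29.2% of all genes were higher without overlap) and for the 1 that was lower (37.8%). The KO median was 2.31 for the members and -0.20 for all genes. In these bulk samples, more cells in S phase and more RNA per cell cannot be told apart.

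**Figure D1:**
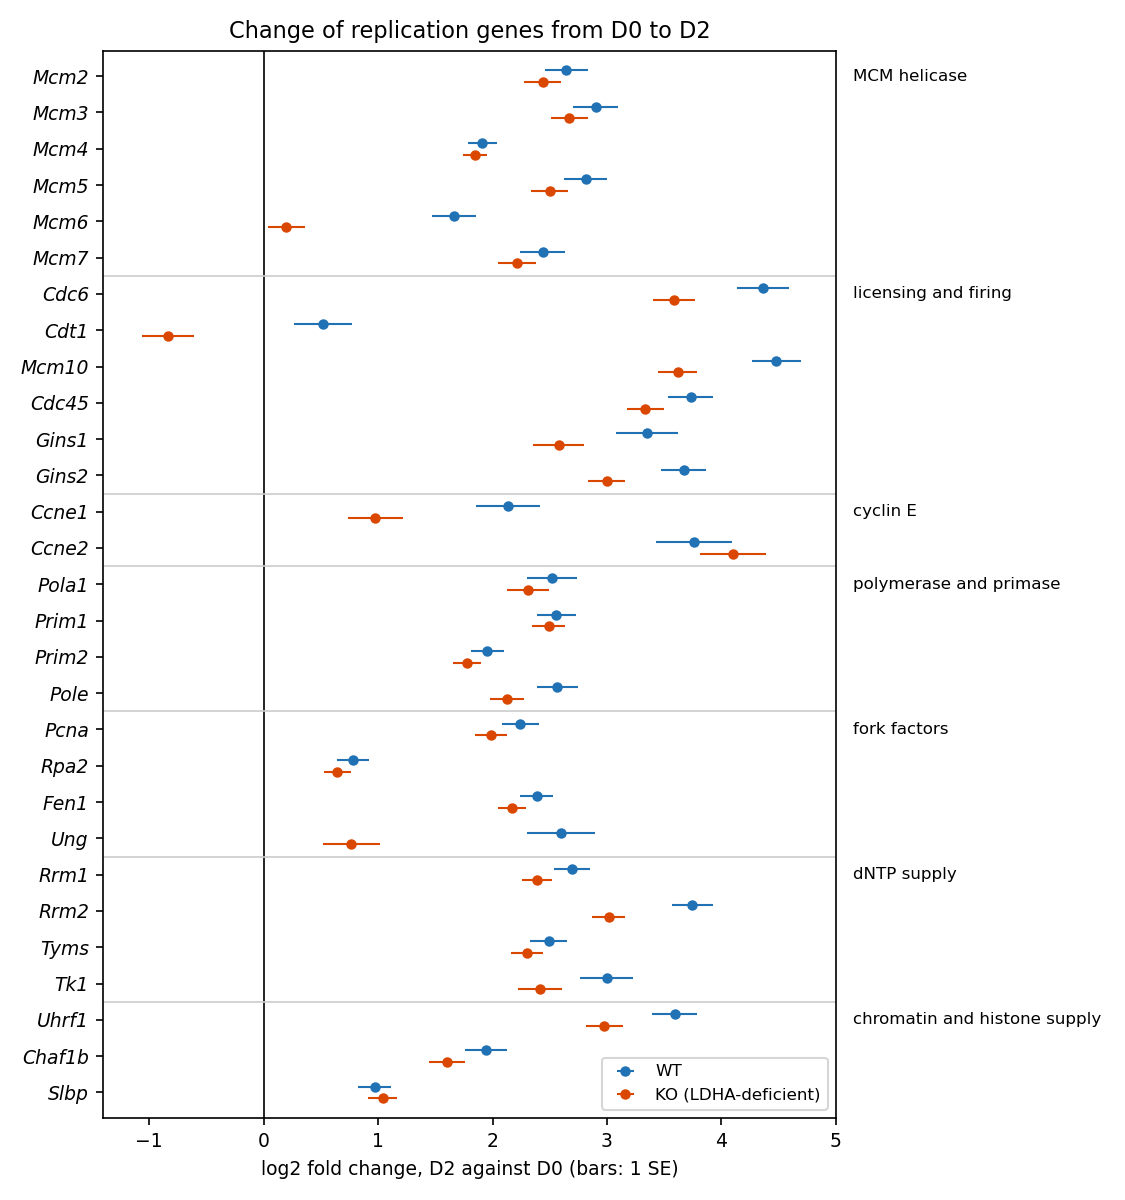
log2 fold change of D2 against D0 for each member, by role, in WT cells (blue) and KO cells (orange), with bars of 1 SE from the edgeR fit. Most genes sit near 2 to 4 in both genotypes, while Mcm6, Cdt1, Ccne1 and Ung lie farther left in KO cells.

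Licensing and firing genes showed some of the largest rises. Mcm10, which helps assemble the active helicase, stood at 5.20 and 5.95 CPM in the WT D0 libraries and at 154, 113 and 107 CPM in WT D2. In KO it stood at 7.34, 7.68 and 8.92 CPM at D0 and at 104, 86.8 and 103 CPM at D2. The days did not overlap in either genotype, and the log2 fold changes were 4.48 (SE 0.212, adjusted p = 1.2e-08) in WT and 3.62 (SE 0.171, adjusted p = 7.6e-09) in KO by the edgeR test.

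Cdc6, the MCM loader, rose 20.6-fold in WT and 12.0-fold in KO. Cdc45 rose 13.3-fold and 10.1-fold. The GINS subunits Gins1 and Gins2 rose 10.2-fold and 12.7-fold in WT, and 5.97-fold and 7.98-fold in KO. Cdt1, which loads MCM rings with CDC6, was the exception in this role and is described with the genotype comparison.

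Of the 2 E-type cyclins, Ccne2 rose most. It stood at 4.62 and 3.51 CPM in WT D0 and at 69.0, 46.1 and 50.3 CPM in WT D2. In KO it stood at 4.31, 2.76 and 1.62 CPM at D0 and at 50.2, 50.7 and 49.7 CPM at D2. The 3 KO D2 libraries thus lay within the WT D2 range, and the log2 fold changes were 3.76 (SE 0.334) in WT and 4.10 (SE 0.290) in KO.

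Genes of strand synthesis rose by similar amounts to one another. Prim1, the catalytic primase subunit, had log2 fold changes of 2.56 (SE 0.170) in WT and 2.49 (SE 0.145) in KO. Its 2 WT D0 libraries stood at 16.5 and 16.6 CPM and its KO D0 libraries at 18.1, 16.9 and 16.5 CPM. At D2 the WT libraries stood at 113, 81.0 and 98.1 CPM and the KO libraries at 100.3, 84.4 and 105 CPM, so that the genotypes overlapped. Pola1, the catalytic subunit of polymerase alpha, Prim2, the large primase subunit, and Pole, the leading-strand polymerase, rose between 3.88-fold (Prim2) and 5.92-fold (Pole) in WT, and between 3.43-fold (Prim2) and 4.95-fold (Pola1) in KO.

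Fen1, the flap endonuclease of lagging-strand processing, stood at 61.5 and 75.5 CPM in WT D0 and at 383, 325 and 365 CPM in WT D2. KO values were 73.7, 84.3 and 83.7 CPM at D0 and 363, 346 and 378 CPM at D2. Pcna, the sliding clamp, rose 4.73-fold in WT and 3.96-fold in KO. Rpa2, a subunit of the single-strand binding protein, had the smallest called rise in WT, 1.72-fold, against 1.56-fold in KO.

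In deoxynucleotide supply, the ribonucleotide reductase subunit Rrm2 stood at 34.9 and 35.8 CPM in WT D0 and at 562, 405 and 456 CPM in WT D2. KO values were 43.8, 40.7 and 45.5 CPM at D0 and 339, 312 and 398 CPM at D2. The rise was 13.4-fold in WT and 8.08-fold in KO. Rrm1, the large subunit, rose 6.48-fold and 5.23-fold, thymidylate synthase (Tyms) 5.62-fold and 4.92-fold, and thymidine kinase (Tk1) 7.99-fold and 5.34-fold, in WT and KO respectively.

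Among chromatin factors, Uhrf1, which recognises hemimethylated DNA behind the fork, stood at 26.1 and 30.4 CPM in WT D0 and at 400.1, 307 and 315 CPM in WT D2. In KO it stood at 32.3, 40.4 and 43.4 CPM at D0 and at 315, 261 and 337 CPM at D2. Chaf1b, a subunit of chromatin assembly factor 1, rose 3.84-fold in WT and 3.03-fold in KO. Slbp, which binds histone mRNA, rose 1.96-fold and 2.06-fold.

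**Figure D2:**
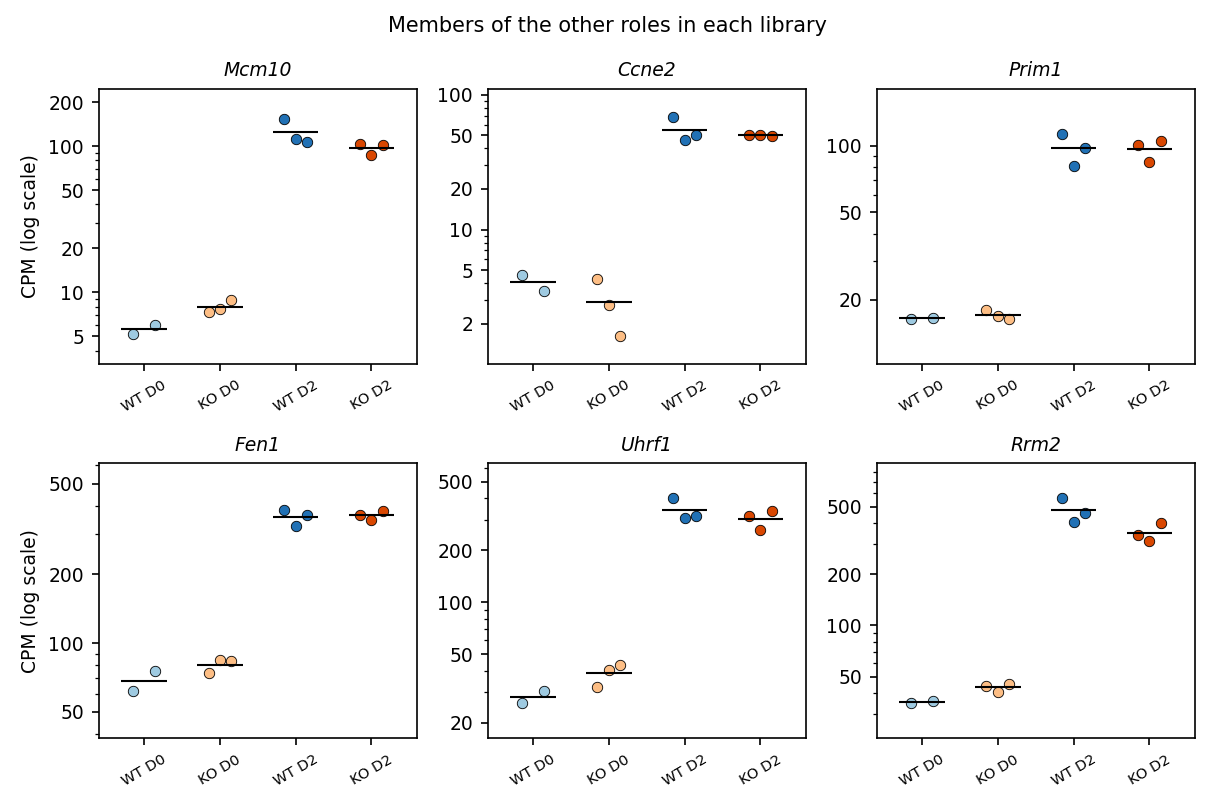
CPM of 6 members in every library (points, log axis; black bars are group means), for WT D0 (n = 2), KO D0, WT D2 and KO D2 (n = 3 each). D2 libraries lie above all D0 libraries for each gene, and only Mcm10 and Rrm2 have no KO D2 library inside the WT D2 range.

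The 6 MCM proteins form a hexamer, but their transcripts did not move alike. In WT all 6 rose from D0 to D2, with log2 fold changes from 1.66 for Mcm6 to 2.90 for Mcm3. In KO, Mcm2, Mcm3, Mcm4, Mcm5 and Mcm7 rose, with log2 fold changes from 1.85 for Mcm4 to 2.67 for Mcm3, while Mcm6 had 0.20 (SE 0.161, adjusted p = 0.31). Mcm4 stood at 158 and 152 CPM in WT D0 and at 149, 159 and 156 CPM in KO D0. At D2 it stood at 647, 529 and 572 CPM in WT and at 558, 520 and 591 CPM in KO.

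Mcm6 stood at 231 and 306 CPM in WT D0 and at 206, 288 and 303 CPM in KO D0. Its WT D2 libraries stood at 791, 844 and 916 CPM. The KO D2 libraries stood at 297, 272 and 347 CPM, of which the first 2 lay within the D0 range and all 3 below every WT D2 library. KO cells held 35.9% of the WT level at D2, a log2 fold change of -1.48 (SE 0.164, edgeR adjusted p = 1.2e-04). The other 5 subunits held between 91.6% (Mcm7) and 95.5% (Mcm4) of the WT level, and their groups overlapped.

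The ratio of Mcm6 to the geometric mean of the other 5 subunits, taken within each library on the CPM scale, does not depend on the scaling between libraries. It was 2.50 ± 0.154 in WT D0 (SD, n = 2) and 2.28 ± 0.203 in KO D0 (n = 3). At D2 it was 1.37 ± 0.187 in WT and 0.519 ± 0.0254 in KO (n = 3 each). The WT D2 libraries ran from 1.16 to 1.51 and the KO D2 libraries from 0.4996 to 0.548, with no overlap. The ratio was formed with the values of Mcm6 known, so it is a description and no test is given.

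**Figure D3:**
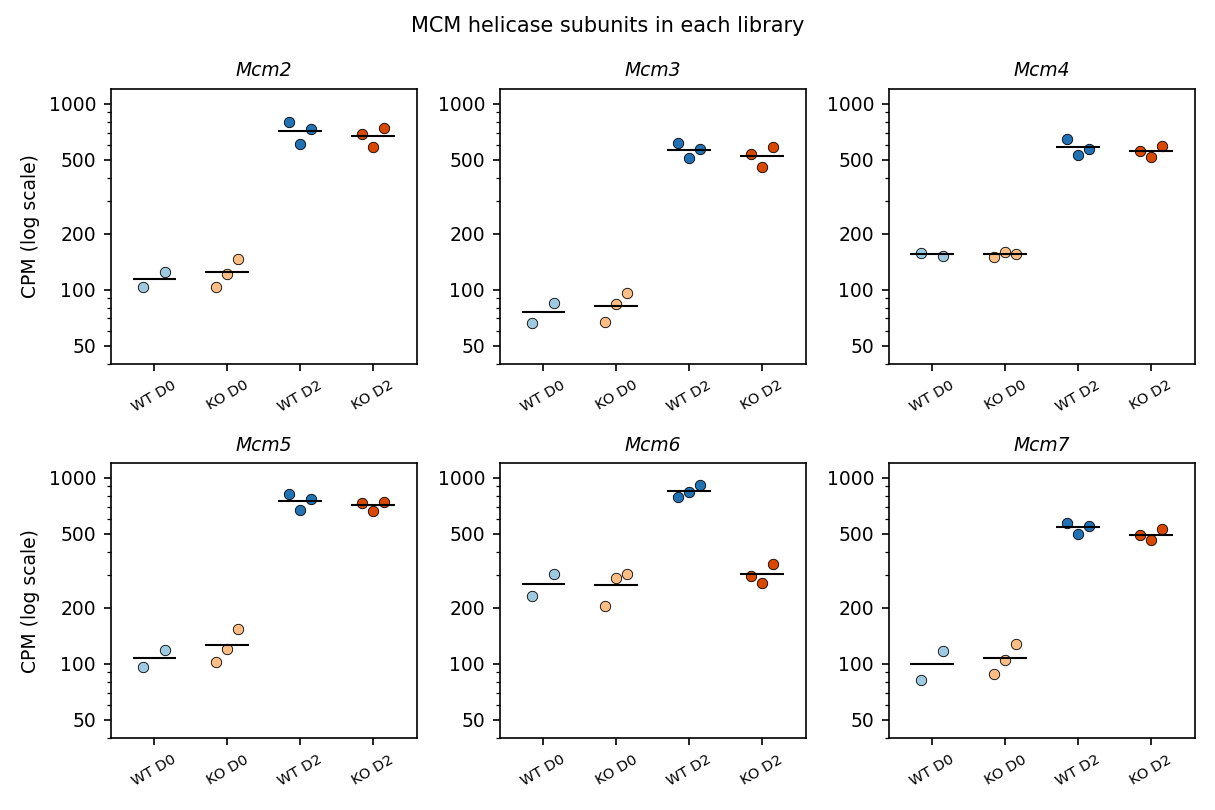
CPM of the 6 MCM subunits in every library (points, shared log axis; black bars are group means), for WT D0 (n = 2), KO D0, WT D2 and KO D2 (n = 3 each). In KO D2, Mcm6 stays between 272 and 347 CPM while the other 5 subunits overlap with WT D2.

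Per kilobase of transcript, where genes can be set side by side, Mcm6 was the most abundant MCM transcript in WT D2, at 292 ± 21.5 CPM per kb (SD, n = 3), above Mcm5 at 224 ± 21.9. In KO D2 it was the least abundant of the 6, at 105 ± 13.1, below Mcm4 at 155 ± 9.94. Among all 29 members in WT D2, Pcna led at 400.1 ± 50.3 CPM per kb and Ung was lowest at 2.81 ± 0.462. In KO D2, Pcna led at 380.5 ± 30.4 and Ung was lowest at 1.27 ± 0.0359.

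KO against WT at D2 compares the levels reached in donor cells that differ in LDHA and CD45 allele, which cannot be told apart here. It called 5 of the 29 members lower in KO in the main fit, which does not pair libraries. This share was near the 14.5% of all genes tested, and no member was called higher, against 1.61%. The 5 were Mcm6, Cdt1, Ccne1, Ung and Rrm2. KO and WT libraries did not overlap, with KO lower, for 6 members (the 5 and Mcm10), a share near the 21.3% of all genes. For the other 24 members the log2 fold change ran from -0.35 (Mcm10) to 0.02 (Prim2), with SE between 0.105 and 0.247 and adjusted p from 0.17 to 0.98. With the replicate number as a block within each day, Mcm10 (-0.33, adjusted p = 0.040) and Cdc6 (-0.33, adjusted p = 0.048) were called lower as well. The same block called 18.6% of all genes lower.

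Cdt1 stood at 51.1 and 78.0 CPM in WT D0 and at 42.8, 62.2 and 73.6 CPM in KO D0. At D2 it stood at 71.6, 104 and 102 CPM in WT and at 30.4, 30.1 and 39.6 CPM in KO. KO D2 libraries were thus lower than every other library, and held 36.04% of the WT D2 level (log2 fold change -1.47, SE 0.230, edgeR adjusted p = 7.8e-04). In WT the change from D0 to D2 was 0.52 (SE 0.253, adjusted p = 0.10). It was called in 5 of 20 settings: the replicate block across days (0.68, adjusted p = 0.0031), leaving out WT D0 replicate 3 (0.86, adjusted p = 0.042) or WT D2 replicate 1 (0.67, adjusted p = 0.041), and offsets for the mean GC content of transcripts (0.85, adjusted p = 6.1e-04) or for their local GC content (0.57, adjusted p = 0.024), described further on. In KO, Cdt1 fell from D0 to D2 by 0.83 on the log2 scale (SE 0.227, adjusted p = 0.0064).

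Ccne1, the other E-type cyclin, stood at 5.72 and 5.60 CPM in WT D0 and at 17.7, 30.8 and 26.1 CPM in WT D2. KO values were 3.00, 4.92 and 5.17 CPM at D0 and 8.80, 8.20 and 8.73 CPM at D2. It rose in both genotypes, 4.39-fold in WT and 1.97-fold in KO, and KO D2 held 34.5% of the WT D2 level (log2 fold change -1.54, SE 0.236, edgeR adjusted p = 7.2e-04). Ccne2 had -0.14 (SE 0.247, adjusted p = 0.82) in the same comparison, and its groups overlapped.

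Ung, the uracil DNA glycosylase that removes uracil from DNA, was the least abundant member at D2. It stood at 0.840 and 1.14 CPM in WT D0 and at 5.03, 5.97 and 7 CPM in WT D2. KO values were 1.24, 1.92 and 1.62 CPM at D0 and 2.76, 2.75 and 2.62 CPM at D2. KO libraries were above WT at D0 and below WT at D2, with no overlap on either day. At D2 KO held 45.2% of the WT level (log2 fold change -1.15, SE 0.241, edgeR adjusted p = 0.0049). The rise from D0 to D2 was 6.04-fold in WT and 1.70-fold in KO. The KO rise was not called without KO D0 replicate 1 (log2 fold change 0.61, adjusted p = 0.068).

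**Figure D4:**
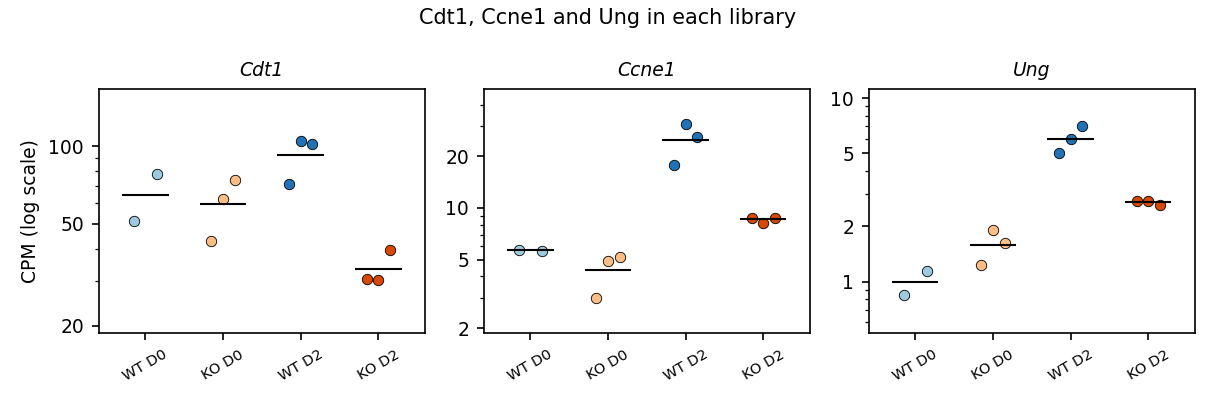
CPM of Cdt1, Ccne1 and Ung in every library (points, log axis; black bars are group means), for WT D0 (n = 2), KO D0, WT D2 and KO D2 (n = 3 each). All KO D2 points lie below all WT D2 points, and for Cdt1 they also lie below the D0 libraries.

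Rrm2 had a smaller difference. KO D2 held 73.7% of the WT D2 level (log2 fold change -0.44, SE 0.134, edgeR adjusted p = 0.040), and the highest KO library, at 398 CPM, lay just under the lowest WT library, at 405 CPM. This call was lost on leaving out any of 7 of the 11 libraries (KO D0 replicate 2, KO D2 replicate 1 or 2, either WT D0 library, or WT D2 replicate 1 or 3). Across the leave-one-out fits its log2 fold change ran from -0.55 to -0.30. Mcm6, Cdt1, Ccne1 and Ung were called in all 11 such fits.

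The sign among the members not called depended on the library set and the scaling. KO was lower than WT for 27 of 29 members at D2 with TMM scaling and for 18 of 29 with the DESeq2 size factors (RLE), under which the median of all genes moved from 0.01 to 0.10. Without WT D2 replicate 1 it was lower for 14 of 29. WT D2 replicate 1 was the highest WT D2 library for 24 of the 24 members not called, and the lowest for Mcm6, Cdt1, Ccne1 and Ung. KO D2 replicate 2 was the lowest KO D2 library for 27 of all 29.

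Local GC content of the transcript went along with the difference between genotypes at D2. It was taken as the highest GC share of any 100-base window of the principal transcript. At or above 75% stood 6 members: Ccne1 (83%), Cdt1 (78%), Mcm6 (77%), Slbp (76%), Ung (75%) and Ccne2 (75%). Of these, 4 were lower in KO at D2, with a median log2 fold change of -1.31, against 1 of the 23 members under 75%, with a median of -0.11. That 1 was Rrm2 (72%). The 75% threshold was chosen after seeing the data, and Ung and Ccne2 lie on it, so the split is a description. Among all genes with a value, 1701 of 4968 (34.2%) at or above 75% were lower in KO at D2, against 253 of 7849 (3.22%) below it.

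Counted from the transcript's first base, the richest window of these 6 and of Rrm2 began between base 21 (Rrm2) and base 261 (Ung), in the coding part for Mcm6, Cdt1 and Ung and in the 5′ UTR for Ccne1, Ccne2, Slbp and Rrm2. At D0 the 6 members had a median KO against WT value of -0.10 and all genes at or above 75% had 0.01. With an offset for this measure in the fit, the KO against WT values at D2 were smaller and stayed called: -0.97 for Mcm6 (adjusted p = 7.6e-04), -0.86 for Cdt1 (0.0060), -0.99 for Ccne1 (0.0033) and -0.86 for Ung (0.024). With the same offset Mcm6 was called higher at D2 than at D0 in KO (0.74, adjusted p = 3.4e-04), the KO rises of Ccne1 and Ung were 1.67 and 1.06, and the fall of Cdt1 in KO was no longer called (-0.18, adjusted p = 0.40). The fall was not called with an offset for mean transcript GC either (-0.10, adjusted p = 0.57), which gave 1.30 for the KO rise of Ung. The part of GC content in the genotype difference was not tested beyond these fits.

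**Figure D5:**
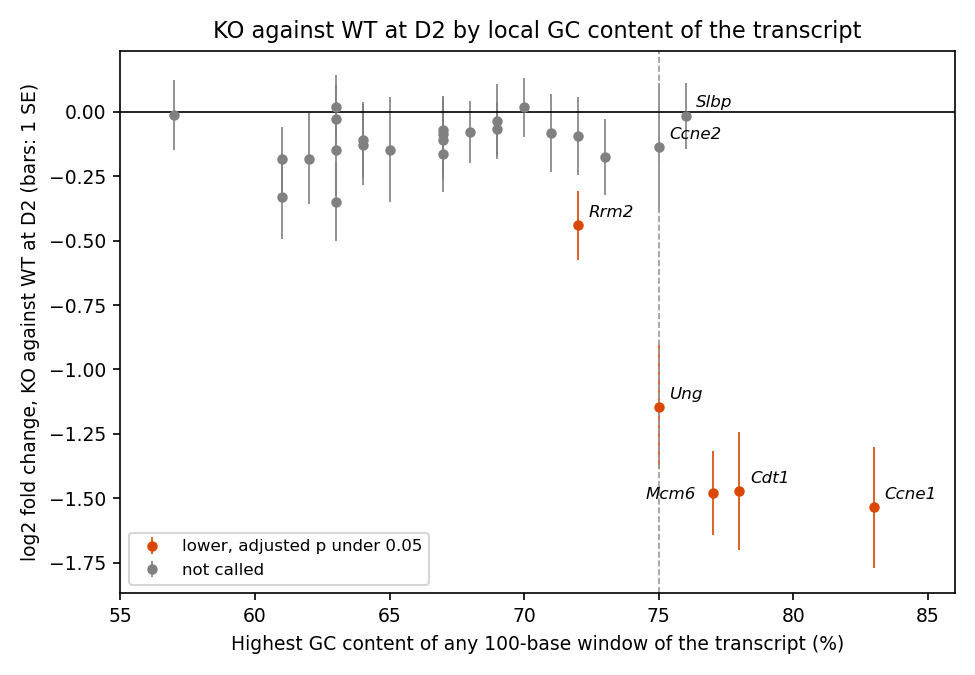
log2 fold change of KO against WT at D2 (bars of 1 SE) against the highest GC content of any 100-base window of the transcript, for the 29 members. Members called lower are orange, those not called grey, and the dashed line marks 75%; 4 of the 6 members at or right of it were called.

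Mcm6 also lies on chromosome 1, 9.70 Mb from Ptprc, the gene of CD45, whose allele differs between WT and KO cells. The 2 other members on that chromosome, Mcm3 and Prim2, lie 117.24 and 104.39 Mb from Ptprc. KO against WT for Mcm6 was -0.02 (SE 0.179) at D0 and -1.48 (SE 0.164) at D2. Whether linked strain differences reach Mcm6 on either day was not tested.

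At D0, KO against WT called no member in either direction by the edgeR test (0.0948% of all genes were called higher and 0.0583% lower), and 7 members had an unadjusted p under 0.05 (24.1%, against 4.35% of all genes). DESeq2 called none either. Values ran from -0.48 (Ccne2) to 0.68 (Ung), and 23 of 29 were positive. The member median was 0.18, against 0.02 for all genes. KO libraries lay above both WT libraries for 11 of 29 members, against 10.6% of all genes, and below both for 1, Ccne1, against 5.91%. The 11 included Cdc6 (137% of WT), Mcm10 (143%), Gins2 (142%), Rrm2 (122.5%) and Uhrf1 (137%). Uhrf1 alone was called with the replicate block within each day (0.57, adjusted p = 0.050, under the threshold before rounding). Only 2 WT D0 libraries stand behind these values.

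Whether the change from D0 to D2 differed between WT and KO was tested directly, as an interaction. It called 3 members, all with a smaller change in KO, against 5.72% of all genes, and none with a larger change, against 0.124%. They were Ung (-1.83, SE 0.381, adjusted p = 0.021), Mcm6 (-1.46, SE 0.245, adjusted p = 0.0097) and Cdt1 (-1.35, SE 0.341, adjusted p = 0.037). Smaller and larger changes are meant by signed log2 value, here and below. Cdt1 had 0.52 in WT, which was not called, and a called fall in KO (-0.83), so its direction was opposite. Rrm2 (-0.73) and Mcm10 (-0.86) both had an adjusted p of 0.055, and Ccne1 (-1.16) had 0.080. The estimate was negative for 27 of 29 members, with a median of -0.32 against -0.04 for all genes; the exceptions were Ccne2 (0.34) and Slbp (0.07). With RLE scaling it was negative for 25 of 29.

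This count moved with the design, scaling, filter, tool and single libraries. Cdt1 was called in 10 of 22 settings and was lost with RLE scaling (-1.24, adjusted p = 0.064) and with no filter on low counts (-1.34, adjusted p = 0.059). The filter of 5 mean CPM added Mcm10 (-0.87, adjusted p = 0.037) and Rrm2 (-0.74, adjusted p = 0.036), and DESeq2 added Ccne1 (-1.05, adjusted p = 0.042). The replicate block within each day called 12 members (41.4%, where it called 14.6% of all genes with a smaller change), adding Ccne1, Cdc45, Mcm5, Uhrf1, Rrm2, Tk1, Cdc6, Gins2 and Mcm10, all with a smaller change in KO. The block across days called 6 (20.7%, against 12.5% of all genes). No member was called without WT D0 replicate 2, where Mcm6 had an adjusted p of 0.065, and 6 were called without KO D0 replicate 1. Only Mcm6 was called without KO D0 replicate 2, KO D2 replicate 1, KO D2 replicate 2 or WT D2 replicate 3, and only Mcm6 with the offset for local GC content, which gave -0.96 for Mcm6, -1.54 for Ung (adjusted p = 0.066) and -0.75 for Cdt1 (adjusted p = 0.18). In those 4 leave-one-out fits Ung lay between -1.84 and -1.67, with adjusted p from 0.053 to 0.077, and Cdt1 between -1.32 and -1.27, with adjusted p from 0.093 to 0.12, both near their values with all libraries. Without any of KO D0 replicate 3, KO D2 replicate 3, WT D0 replicate 3 or WT D2 replicate 2, Mcm6 and Ung were called and Cdt1 was not.

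A list of 62 further replication genes gives the surroundings of the members, all of them tested. In WT, 55 were higher at D2 than at D0 (27.5% of all genes were) and 3 lower (26%). In KO 52 were higher (27% of all genes) and 4 lower (34.5%). Rises with the smallest p in WT included Lig1, the DNA ligase of lagging-strand joining (log2 fold change 2.83), Orc1, the origin recognition subunit (4.62), and Clspn, a checkpoint adaptor at forks (3.18). The fall of Rrm2b, the alternative small subunit of ribonucleotide reductase, was called in WT (-1.28) and in KO (-0.81), opposite to Rrm2 in both.

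In KO against WT at D2, 11 of the 62 (17.7%) were lower, a share near the 14.5% of all genes, and none was higher (1.61%). With the smallest p were Dut, the dUTPase that keeps uracil out of DNA precursors (-1.90, SE 0.145), Dbf4, the activator of the CDC7 kinase that fires origins (-1.65, SE 0.15), Rfc5, a clamp loader subunit (-1.04, SE 0.119), and Dscc1, of an alternative clamp loader (-1.399, SE 0.179). Of the 24 listed genes with a window at or above 75% GC, 10 were lower, against 1 of the other 38. At D0 none of the 62 was called by edgeR, and 4 (6.45%) had an unadjusted p under 0.05, against 4.35% of all genes. The difference between genotypes called 8 of the 62 (12.9%), all with a smaller change in KO, against 5.72% of all genes, led by Dut (-2.10), Dbf4 (-1.51), Rfc5 (-1.10) and Ticrr (-1.52), a factor in helicase activation.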

How the data were processed

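The deposited table holds counts, as whole numbers, for genes named by Entrez ID. Per the labels' protocols, RNA was amplified with SMART-seq V4 from cells sorted as TCRb- CD3e- NK1.1+ DX5+ Ly49H+. Per the submitters' processing notes, tools included Salmon 0.13.1 (once written 13.1), DESeq2 1.22.2, Trimmomatic 0.36 and bcl2fastq 2.20.0.422, and the build was mm10; their roles are not given in the sources used here, so the counts may be rounded estimates. Symbols from RefSeq (GRCm38.p6) matched 24387 of 24421 IDs. GC content came from GENCODE vM21 transcripts and covered 12817 tested genes (93.5%) and all 29 members.

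The test was edgeR's quasi-likelihood test (version 4.0.16, R 4.3.3; robust, TMM, filterByExpr) in 1 fit of 11 libraries and 4 group means, leaving 7 residual degrees of freedom. SE were derived from the F statistic, and p was adjusted over the 13711 genes tested. DESeq2 1.42.0 was an alternative, beside RLE scaling, no filter, a filter of 5 mean CPM, the compared groups alone, replicate blocks, GC offsets and leaving out each library. The offsets for local GC content and the 75% threshold were chosen after seeing the data. By library totals without TMM factors, 3 counts, the floor of detection, stand for 0.107 to 0.154 CPM, counting error only. The other CPM values carry TMM factors. In simulated counts, 100 of 13711 genes were changed by 1 and 100 by 2 on the log2 scale. The changes were made in KO D2 alone, in genes above 1 CPM, from a mean shared by all groups. For KO against WT at D2, 70% and 94% of these were called, and for the difference between genotypes 36% and 79%. Far more genes were called in the data, so these shares may not hold there.

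Same-numbered KO and WT libraries at D2 correlated in their deviations from the group means at 0.217, 0.198 and 0.114 (prior count 2). The replicate blocks therefore took the numbers to pair libraries, but the main fit did not pair them. The labels give only the numbers. At D0, 2 shared numbers gave 0.0275 and 0.41. Different-numbered KO and WT libraries gave -0.193 to 0.00511 at D2 and -0.41 to 0.376 at D0. Same-numbered libraries of different days gave 0.00843 to 0.218, a range that reaches the D2 values. What the numbers mark was not tested. Values per library are given for members called in KO against WT at D2 or in the difference, and for the member of each role with the smallest p in WT; from the list of 62, up to 4 genes with the smallest p per comparison and direction were eligible. Members and lists were chosen with earlier results of these data known.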

Additional observations from a re-analysis of the deposited data

Results flagged for a closer look

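For 3 members the change from D0 to D2 differed between genotypes by the test of that difference (edgeR, adjusted p under 0.05): Mcm6 (-1.46 on the log2 scale), Cdt1 (-1.35) and Ung (-1.83). Mcm6 and Ung were above 0 in WT and smaller in KO, at 1.66 against 0.20 for Mcm6 and at 2.60 against 0.77 for Ung. Cdt1 had 0.52 in WT and -0.83 in KO.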

How the results depend on the processing

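Mcm6, Cdt1, Ccne1 and Ung were lower in KO at D2 under every alternative that gave them a value, and Rrm2 was called in 12 of 23 settings, the main one included. The replicate block took no call away from any member. Within each day it gave 1 higher member at D0 (Uhrf1) and 12 with a smaller change in KO, and across days it gave 6 with a smaller change and added the rise of Cdt1 in WT; within each day it also added Mcm10 and Cdc6 at D2, and it changed no other call. The block with the mean GC offset gave 8 with a smaller change. With the local GC offset 1 had a smaller change. With that offset and the block there were 8 lower and 1 higher (Slbp) at D2, 1 higher at D0, 14 with a smaller and 2 with a larger change (Slbp and Ccne2). Lower calls for D2 against D0 in KO were 0 with either offset. Leaving out single libraries moved the count with a smaller change between 0 (without WT D0 replicate 2) and 6 (without KO D0 replicate 1). The cause was not tested.

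For KO against WT at D2, Slbp changed sign and was called. It was -0.015 in the main fit and 0.392 with the block and the local GC offset (edgeR adjusted p = 0.0094). The other sign changes given below were small and never called, and not every sign change is listed. For KO against WT at D2, Mcm4 was 0.025 with RLE scaling and with DESeq2, 0.052 with the mean GC offset, 0.056 with that offset and the block, and -0.131 to 0.016 on leaving out single libraries. Prim1 was 0.077 with RLE scaling and with DESeq2, 0.037 with the compared groups alone, 0.110 and 0.117 with the mean GC offset without and with the block, and -0.130 to 0.107 on leaving out libraries. With the local GC offset without and with the block, Ccne2 was 0.142 and 0.170, Prim2 -0.092 and -0.090, and Fen1 -0.074 and -0.073. Leaving out libraries gave -0.249 to 0.058 for Ccne2, -0.062 to 0.122 for Prim2 and -0.047 to 0.071 for Fen1. For KO against WT at D0, Mcm6 was 0.005 with the filter of 5 mean CPM, 0.152 with the block within each day, 0.062 with the block across days, 0.120 and 0.104 with the block and the mean or local GC offset, and -0.204 to 0.201 on leaving out libraries. Cdt1 was 0.099 with the block within each day and 0.027 with the block across days. It was 0.044 with the block within each day and the local GC offset, and -0.392 to 0.219 on leaving out libraries. Leaving out either WT D0 library leaves a lone WT D0 sample, assumed to vary like the other groups. The interaction was not rerun with only the compared groups, which are all 4. Over all genes, RLE scaling called 440 higher and 1762 lower in KO at D2, against 221 and 1986.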
